A study of Bos taurus with 6 samples.

Results

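TLR2, TLR4 and CD14 are 3 genes of innate sensing, examined here in liver biopsies of Angus x Simmental cattle given rumen-protected niacin. They were taken by their Ensembl identifiers, ENSBTAG00000008008 (TLR2), ENSBTAG00000006240 (TLR4) and ENSBTAG00000015032 (CD14), and all 3 were present among the 23833 identifiers of the count table. The table carries no symbols, so the names of these 3 follow Ensembl's cattle annotation. The niacin group held 3 biopsies from cattle that received rumen-protected niacin, a coated form of vitamin B3 meant to pass the rumen. The control group held 3 biopsies from cattle without it. Each biopsy has its own code, but the labels do not call these separate animals, so n counts biopsies. All cattle could eat Bermudagrass hay at will and were fed daily with 1.61 kg of fescue seed that carried no endophyte, 1.61 kg of a corn and soybean meal pellet and 0.1 kg of molasses. The sources used here do not give dose, duration, age or sex.

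The products of these genes work on cell surfaces that meet bacterial material. TLR4 binds lipopolysaccharide of Gram-negative bacteria together with its partner LY96, TLR2 binds bacterial lipoproteins as a dimer with TLR1 or TLR6, and CD14 is a lipid-anchored co-receptor that hands such ligands to both. Signals from TLR2 and TLR4 pass through the adaptor MYD88, and from TLR4 also through TICAM1, to NF-kB and cytokine genes. In the liver, portal blood brings bacterial products from the gut to resident macrophages (Kupffer cells), which carry all 3 molecules, and in human and mouse the hepatocytes also release soluble CD14.

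RNA was poly(A)-selected and counted per gene. The 3 niacin libraries held between 54478409 and 111478194 counts and the 3 control libraries between 48593701 and 57315443. With niacin, 2622 of 14839 genes tested, or 17.7%, passed an adjusted p of 0.05 (quasi-likelihood test of edgeR, Benjamini-Hochberg adjusted over all genes, n = 3 per group). Of the genes tested, 14.2% were called higher and 3.46% (513 genes) lower with niacin. Against that background, 0 of the 3 innate sensing genes passed. DESeq2 and limma-voom likewise called 0 of the 3, and at an unadjusted p under 0.05 the edgeR test gave 1, TLR4, where 28.9% of all genes tested met that bound and 9.11% met it with a lower level in niacin. All 3 log2 folds were below 0, as were those of 46.8% of genes tested. The 3 folds had a median of -0.37, beside a median of 0.07 over all genes tested.

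TLR4, the lipopolysaccharide receptor, showed the largest difference of the 3. Levels are counts per 1000000 counts of a library (CPM) after TMM scaling, which corrects library totals for differences in composition. TLR4 stood at 3.93, 3.56 and 2.64 CPM in niacin replicates 1, 2 and 3, against 5.62, 6.56 and 6.07 CPM in control replicates 1, 2 and 3. Every niacin library lay below every control library. The 95% counting intervals did not meet either, since the highest upper bound with niacin was 4.49 CPM and the lowest bound among controls was 5.01 CPM. These exact Poisson intervals cover counting error only and rest on 216 to 376 counts per library.

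The mean TLR4 level was 3.37 ± 0.661 CPM in niacin livers and 6.08 ± 0.471 CPM in control livers (SD, n = 3 each). The log2 fold was -0.85 ± 0.39 (SE), which is 0.555 times the control level with a 95% interval of 0.313 to 0.983. The unadjusted p was 0.0441 and the edgeR adjusted p was 0.158, so the difference did not pass the test across all genes. Nor did the unadjusted value stay under 0.05 in every setting. Leaving out each library in turn, which also shrank a group, gave unadjusted edgeR values of 0.0533 to 0.0964. The 95% intervals of these fits reach past equal levels. The unadjusted edgeR value was 0.0550 with the code letter described below as a term and 0.0612 with no filter on low counts. It was 0.113 with TMM factors taken from genes of 100 CPM or more and 0.152 in the libraries with code letter M alone. Under the other processing settings it stayed under 0.05, from 0.0231 with upper quartile factors to 0.0488 with a filter of 1 CPM in 3 libraries. The unadjusted p was 0.0201 by DESeq2 and 0.0319 by limma-voom. With all 6 libraries, 27.9% of genes tested had a smaller p than TLR4. The exact permutation test on the 6 levels gave p = 0.1 (two-sided), the smallest that 3 against 3 libraries allow. Groups that do not overlap, with niacin lower, were found for 12.4% of all genes tested, for 8.83% of those with a mean of 1 to 10 CPM, and in either direction for 34.4% of all.

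The 5303 genes with a mean of 1 to 10 CPM, the range of TLR4 and TLR2, had a median log2 fold of 0.14. Of these, 84 (1.58%) were called lower with niacin, and the fold nearest to 0 among the 84 was -1.16. A call also depends on the spread of each gene, so this value is no threshold for TLR4 or TLR2. Of all genes with a log2 fold between -1 and -0.75, the interval that holds TLR4, 40 of 917 passed.

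**Figure D1:**
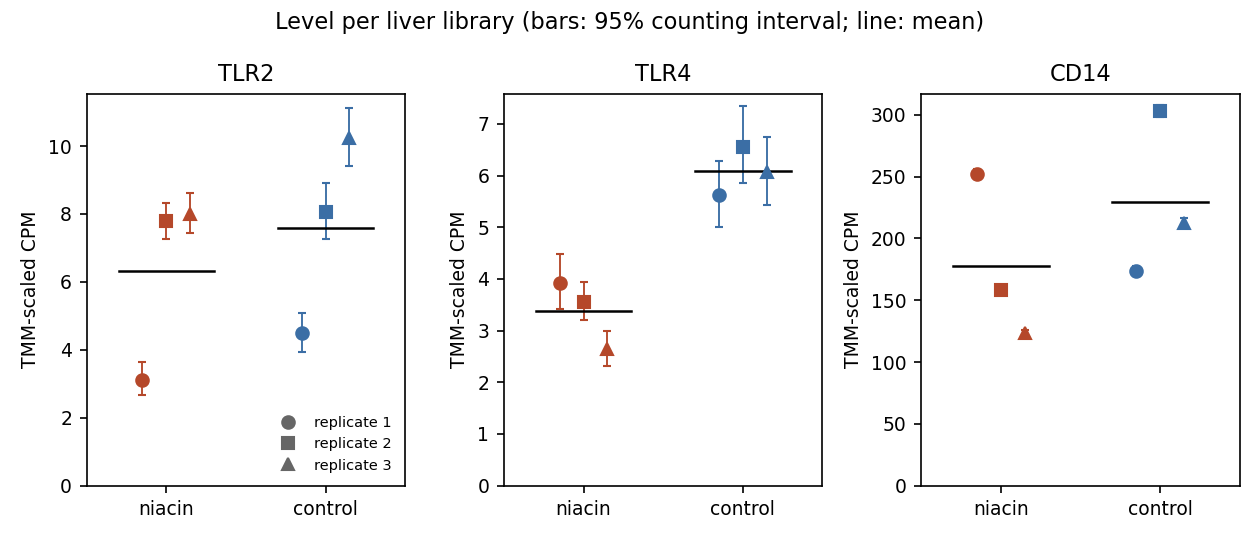
Levels of TLR2, TLR4 and CD14 in each liver library, in TMM-scaled CPM on a linear axis that starts at 0, for niacin (left of each panel) and control (right). Marker shape gives the replicate, bars are 95% Poisson counting intervals and lines are group means. The TLR4 points separate by group, with niacin at 2.64 to 3.93 CPM and control at 5.62 to 6.56 CPM, and the TLR2 and CD14 points overlap.

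TLR2, the receptor for bacterial lipoproteins, varied more between libraries of a group than between the groups. Its levels were 3.13, 7.79 and 8.01 CPM in niacin replicates 1, 2 and 3, against 4.49, 8.06 and 10.2 CPM in control replicates 1, 2 and 3. Replicate 1 was the low library in each group, and the replicate numbers only name libraries and pair nothing. Two-sided exact permutation of the 6 levels gave p = 0.5. The highest library was 2.56 times the lowest with niacin and 2.28 times the lowest in controls.

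TLR2 averaged 6.31 ± 2.76 CPM in niacin livers and 7.60 ± 2.90 CPM in control livers (SD, n = 3 each). The log2 fold was -0.27 ± 0.44 (SE), or 0.832 times the control level with a 95% interval of 0.438 to 1.58, and the edgeR adjusted p was 0.755. The data thus leave room for a change of more than 1.5 times either way. Without niacin replicate 1 the log2 fold was 0.060, and without control replicate 3 it was 0.0063, so either library decides its sign. In RefSeq's ARS-UCD2.0 annotation the span of TLR2 overlaps that of RNF175, while the spans of TLR4 and CD14 overlap no other gene. The libraries were strand-specific, but the strand setting of the counting is not stated in the sources used here. Whether exons of TLR2 and RNF175 overlap was not examined, so it is not known whether the overlap affects the TLR2 counts.

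CD14, the co-receptor, was counted most deeply of the 3, with 9368 to 16700 counts per library. Its levels were 252, 158 and 124 CPM in niacin replicates 1, 2 and 3, against 174, 303 and 213 CPM in control replicates 1, 2 and 3. The groups overlapped: niacin replicate 1 exceeded control replicates 1 and 3, and control replicate 1 lay between niacin replicates 1 and 2. Mean levels were 178 ± 66.5 CPM in niacin livers and 230 ± 66.2 CPM in control livers (SD, n = 3 each).

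The CD14 log2 fold was -0.37 ± 0.35 (SE), or 0.774 times the control level with a 95% interval of 0.462 to 1.30. Its edgeR adjusted p was 0.546, and the exact permutation p of the 6 levels was 0.4 (two-sided). In its abundance range of 100 to 1000 CPM, the median log2 fold of 1084 genes was -0.17, and 90 of them (8.3%) were called lower with niacin. Without niacin replicate 1 the CD14 log2 fold was -0.70, and without control replicate 2 it was -0.12.

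The sample descriptions end their code in M or F, a letter whose meaning is not stated and which falls 2 to 1 in each group. The libraries with F are niacin replicate 2 and control replicate 2, so a comparison within F has no replicates. There CD14 stood at 158 CPM with niacin, against 303 CPM in the control. In the 4 libraries with M, a comparison chosen after seeing the data, the CD14 log2 fold was -0.04 with an edgeR adjusted p of 0.985. With the letter as a term over all 6 libraries, which was planned, it was -0.34. Whether the CD14 fold differs between the letters was not tested. The TLR4 log2 fold was -0.83 within M, with an edgeR adjusted p of 0.446, and -0.85 with the letter as a term, and TLR4 stood at 3.56 CPM with niacin and 6.56 CPM in the control within F. The TLR2 log2 fold within M was -0.41 with an adjusted p of 0.774.

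**Figure D2:**
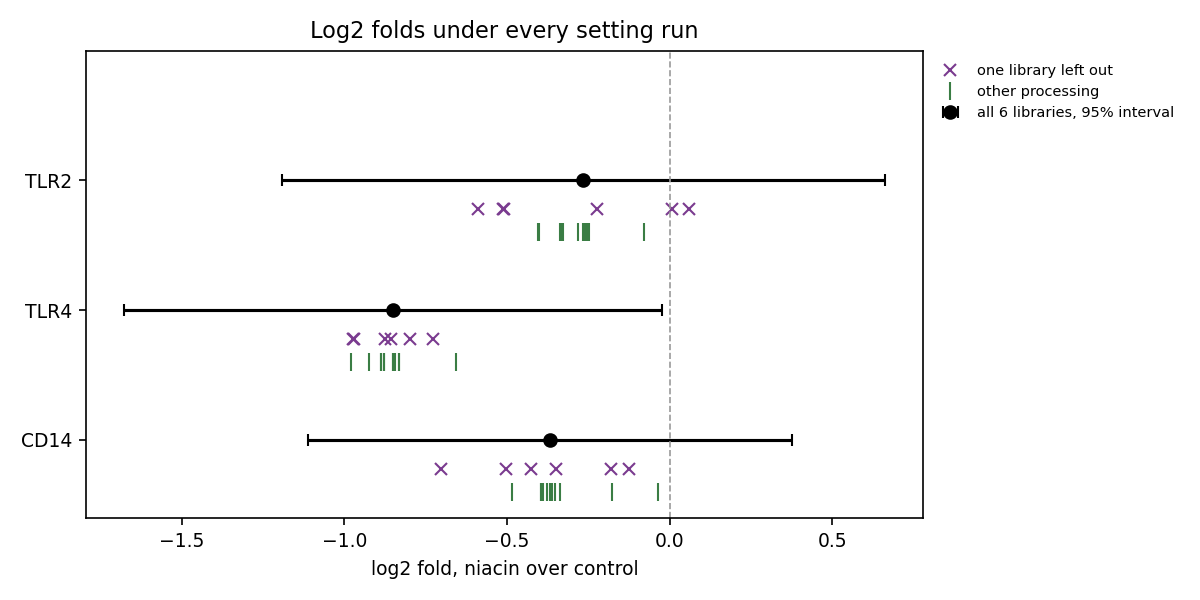
Log2 folds of niacin over control for TLR2, TLR4 and CD14, with the edgeR estimate and its 95% interval (black), the estimates with 1 library left out (crosses) and those under other processing, including the M libraries alone (ticks). TLR4 lay between -0.98 and -0.66 under every alternative, and TLR2 crossed 0 when niacin replicate 1 or control replicate 3 was left out.

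The 3 genes differed in how far libraries of the same group spread. For TLR2 the coefficient of variation was 43.7% with niacin and 38.2% in controls, and for CD14 it was 37.4% with niacin and 28.8% in controls. Counting error alone would give 3.49% to 7.62% per library for TLR2 and 0.774% to 1.03% for CD14, so nearly all of their spread lay between samples. TLR4 varied by 19.6% with niacin and by 7.75% in controls, where counting error would give 5.16% to 6.80% over the 6 libraries. On the log2 scale the within-group SD of TLR4 was 0.22, smaller than that of all but 6.56% of genes tested. It was 0.69 for TLR2 and 0.47 for CD14, beside a median of 0.50 over all genes tested.

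Ratios of counts within a library need no scaling between libraries, and gene length cancels when they are compared between groups. TLR2 counts were 0.797, 2.19 and 3.03 times the TLR4 counts in niacin replicates 1, 2 and 3, against 0.799, 1.23 and 1.69 times in control replicates 1, 2 and 3. The ratio was lowest in replicate 1 of each group, but the replicate numbers pair nothing, and the groups overlapped. The mean log2 ratio was 0.80 ± 1.0 in niacin livers and 0.24 ± 0.54 in control livers (SD, n = 3 each), a difference of 0.56 with an exact permutation p of 0.5 and 0.75 after adjustment over 3 pairs. With 3 against 3 libraries this test cannot go below 0.1 for any pair, so no pair could have passed 0.05.

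CD14 counts were 64.1, 44.4 and 46.7 times the TLR4 counts in niacin replicates 1, 2 and 3, against 30.9, 46.1 and 35.0 times in control replicates 1, 2 and 3. Control replicate 2 lay within the niacin range and the other controls below it. The log2 ratio averaged 5.67 ± 0.29 in niacin livers and 5.20 ± 0.30 in control livers (SD, n = 3 each), and the difference of 0.47 had an exact permutation p of 0.2 and 0.6 after adjustment over 3 pairs. For CD14 over TLR2 the log2 ratio averaged 4.87 ± 1.28 in niacin livers and 4.96 ± 0.51 in control livers (SD, n = 3 each), a difference of -0.09 with an exact permutation p of 0.9, also 0.9 after adjustment.

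**Figure D3:**
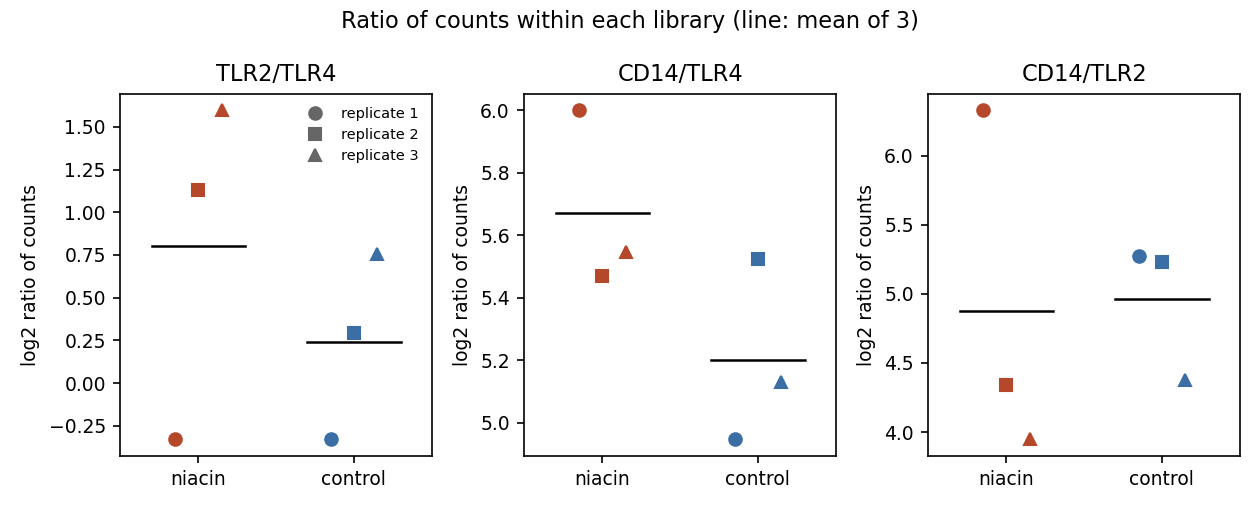
Log2 ratios of counts between pairs of the 3 genes within each liver library, niacin left and control right in each panel, with lines at the group means. Axes differ in range between panels and do not start at 0. All 3 pairs overlap between the groups, and niacin replicate 1 has the highest CD14/TLR4 and CD14/TLR2 ratios.

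The gene most like each of the 3 over the 6 libraries was sought by Pearson correlation of log2 CPM, given here as a description across libraries that share the group difference. For TLR4 it was ENSBTAG00000006801 (r = 0.997), at 9.30, 8.13 and 5.23 CPM in niacin replicates 1, 2 and 3, against 20.2, 25.6 and 23.1 CPM in control replicates 1, 2 and 3. That gene had the same order of libraries as TLR4 and was lower with niacin by a log2 fold of -1.60 ± 0.34 (SE). It passed the test with an edgeR adjusted p of 0.00327. Because it was picked for its match to TLR4 over the same libraries, its direction follows from that choice and lends TLR4 no support. For TLR2 it was ENSBTAG00000004917 (r = 0.982, edgeR adjusted p = 0.911), and for CD14 ENSBTAG00000010858 (r = 0.989, edgeR adjusted p = 0.842), neither of which was called. Both had low levels. ENSBTAG00000004917 ran from 0.036 CPM in niacin replicate 1 to 1.46 CPM in control replicate 3. ENSBTAG00000010858 ran from 0.515 CPM in niacin replicate 3 to 1.07 CPM in control replicate 2. Over 0.95 were 111 genes for TLR4, 22 for TLR2 and 21 for CD14, of 14836 compared. The number for other genes was not computed, so these counts do not mark TLR4 as part of a larger set. The sources used here give these identifiers no symbol.

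Partners and targets of the receptors (co-receptors, adaptors and kinases, NF-kB subunits, brakes and cytokines) and markers of liver cell types were listed by symbol. Of the identifiers in the table, 0 could be paired with a symbol, so neither these lists nor the liver markers could be read out. In bulk tissue, fewer cells that carry a receptor and less of its RNA per cell cannot be told apart, and the part of Kupffer cells or other leukocytes in the TLR4 difference was not tested.

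**Figure D4:**
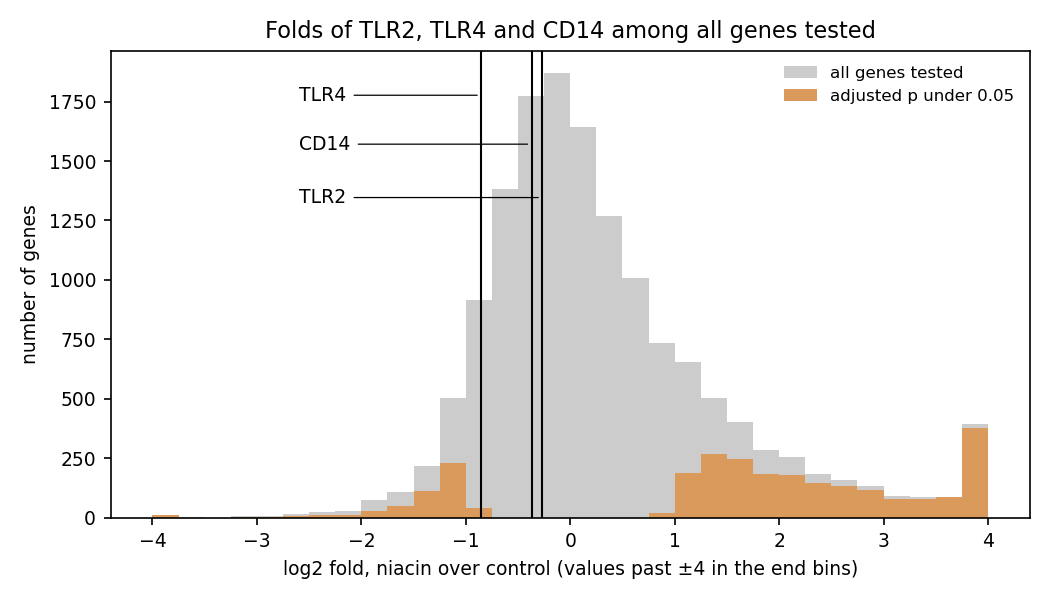
Histogram of log2 folds of niacin over control for the 14839 genes tested (grey) and those with an adjusted p under 0.05 (orange), in bins of 0.25, with vertical lines at TLR4 (-0.85), CD14 (-0.37) and TLR2 (-0.27). Values past -4 and 4 are pooled in the end bins. The lowest bin holds 12 genes, 11 of them passing, and the highest holds 393, with 377 passing. The 3 lines stand in a region where few or no genes passed the test.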

How the data were processed

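The authors deposited raw counts for each Ensembl gene, with replicates in separate columns and 0 columns without a sample. The submitters' processing notes name, with no role or order, HTSeq, DESeq2, Trimmomatic 0.36, TopHat2 2.1.1, FastQC 11.5, bedtools 2.30.0 and Cufflinks 2.2.1. Genome build, annotation and strand setting are not stated in them. Per the labels' protocols, 1500 ng of RNA went into poly(A)-selected, directional libraries, read as pairs of 150 bp.

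The filter was filterByExpr (minimum count 10) and the scaling TMM. Groups, from the agent label, were compared by the quasi-likelihood F test of edgeR 4.0.16 (in R 4.3.3, robust, group only, threshold 0.05), with p-values adjusted by Benjamini-Hochberg over all 14839 genes tested. The SE is the log2 fold over the square root of F. Within-library ratios used a pseudocount of 0.5 and an exact permutation test (scipy 1.17.1). The fit was tested on simulated data. Alternatives used DESeq2 1.42.0, limma 3.58.1, other factors and filters, thinned counts and each library left out. Named genes were the 3 members and, for each, the gene of highest correlation (log2 CPM, prior count 2). The members, lists and tests were chosen with earlier results of these data known. Each library has its own code, but the labels do not call these separate animals. The p-values then measure only the spread among these samples, which may be technical. Of 37063 RefSeq genes (ARS-UCD2.0), 0 had an Ensembl identifier, so other identifiers were left without symbols, and no coordinates are given.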

Additional observations from a re-analysis of the deposited data

How the results depend on the processing

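Across 18 alternatives (17 planned and the M libraries alone, added after seeing the data), 0 of the 3 genes passed an adjusted p of 0.05. TLR4 kept its direction in all 18, with log2 folds from -0.98 (upper quartile factors) to -0.66 (TMM on genes of at least 100 CPM). Its adjusted p ran from 0.0854 (DESeq2) to 0.446 (edgeR, the M libraries). Since every niacin library lay below every control library for TLR4, leaving out libraries could not be expected to reverse its direction. That agreement repeats the separation and adds no separate evidence. CD14 stayed below 0 in all 18, from -0.70 to -0.04. The median log2 fold of all genes moved from 0.07 to 0.27 with TMM on genes of at least 100 CPM and to -0.07 with upper quartile factors, where TLR2 was at -0.08 and -0.40. With each library left out in turn, TLR2 ran from -0.59 to 0.060, above 0 without niacin replicate 1 or control replicate 3. The CD14/TLR2 difference ran from -0.81 to 0.38. It was above 0 without niacin replicate 2 or 3 or control replicate 1 or 2, and 0.32 in the M libraries. The ratios had 9 alternatives: each library left out, a larger pseudocount, thinned counts and the M libraries. Over these 9, the TLR2/TLR4 difference kept its sign, from 0.16 to 1.12. The CD14/TLR4 difference also kept its sign, from 0.31 to 0.63 with a library left out and 0.74 in the M libraries. Genes called lower over the whole table, 513, were 943 with DESeq2, 820 with upper quartile factors, 206 with TMM on genes of at least 100 CPM and 182 in the M libraries. With each library left out they ran from 171 to 1157 and all calls from 1653 to 3549, the low ends without niacin replicate 1 and the high ends without niacin replicate 3. For values that moved, the cause was not tested. Thinned to the smallest total, TLR4 was at -0.92 with an adjusted p of 0.126. No paired analysis was possible because no replicate numbers are shared between groups in the labels. The 95% intervals at 3 libraries a group span changes of more than 1.5 times for each gene, which limits what could be detected.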
